A study of Mus musculus with 4 samples.

Results

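The Hox clusters were examined in a Ring1b chromatin immunoprecipitation sequencing (ChIP-seq) data set from C3H10T1/2 cells, mesenchymal progenitors derived from mouse embryos. One group stably expressed FLAG-HA-tagged wild-type histone H3.3 (WT) and the other stably expressed FLAG-HA-tagged H3.3 with the K36M substitution (K36M). Both were used at passages 10 to 15, with 1 Ring1b library per group. The labels do not say whether the cells' own H3 genes were changed. Neither the promoter of the transgene nor the number of clones is stated in these sources. The members were taken by position: all regions of the deposited table that overlapped 1 of 4 windows of the mouse build mm9. These were HoxA (chromosome 6, 52.095 to 52.23 Mb), HoxB (chromosome 11, 96.045 to 96.24 Mb), HoxC (chromosome 15, 102.74 to 102.88 Mb) and HoxD (chromosome 2, 74.5 to 74.61 Mb). They held 56 of the 6371 regions of the table, with 6 regions in HoxA, 25 in HoxB, 19 in HoxC and 6 in HoxD. The windows were chosen with earlier results of these data known.

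Levels are given as RPM, reads in a region per 1000000 reads of the library, although the deposited columns are headed RPKM. One read was worth 0.0335 RPM in the WT library and 0.0317 RPM in the K36M library, and every value was a whole multiple of its step. Densities are RPM divided by the width of the region in kb. By its name the table holds regions associated with peaks of WT cells, although its lowest WT value was 0 RPM. Sites gained in K36M cells may be missing from it, and a second library may lie lower at regions chosen in the first to an unknown extent. With 1 library per group no test between the groups was possible. Intervals are exact (Clopper-Pearson) 95% intervals of the ratio of the libraries and cover counting error only.

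Hox genes encode homeodomain transcription factors that give cells their position along the body axis and the limbs. Within a cluster the genes lie in the order of their use, from the 13 end, whose genes act most posteriorly and distally, to the 1 end, whose genes act anteriorly. The clusters are classic Polycomb targets: Polycomb repressive complex 2 methylates histone H3 at lysine 27, and Polycomb repressive complex 1, of which Ring1b is the catalytic ubiquitin ligase subunit, modifies histone H2A and compacts the chromatin. Methylation of H3 at lysine 36 hinders Polycomb repressive complex 2, and K36M histones inhibit the enzymes that place that methylation. Mesenchymal cells usually keep part of each cluster active, according to the place in the body they came from, and the rest under Polycomb.

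The windows were set for 38 Hox genes. In the RefSeq gene table (GRCm38.p6) all 38 were found. From the 13 end they ran Hoxa13, Hoxa11, Hoxa10, Hoxa9, Hoxa7, Hoxa6, Hoxa5, Hoxa4, Hoxa3 and Hoxa2 in HoxA, and Hoxb13, Hoxb9, Hoxb8, Hoxb7, Hoxb6, Hoxb5, Hoxb4, Hoxb3, Hoxb2 and Hoxb1 in HoxB. HoxC ran Hoxc13, Hoxc12, Hoxc11, Hoxc10, Hoxc9, Hoxc8, Hoxc6, Hoxc5 and Hoxc4, and HoxD ran Hoxd13, Hoxd12, Hoxd11, Hoxd10, Hoxd9, Hoxd8, Hoxd4, Hoxd3 and Hoxd1. The deposited table is on mm9 and names no genes, and coordinates were not converted between builds. Single regions are therefore given by position and distance from the 13 end of their window, and not by gene.

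Ring1b is found in mammals mainly at CpG-rich promoters, so the promoters of the clusters are shown with their CpG dinucleotides. The RefSeq table of promoter windows (250 bases before to 50 after the start) held 22 of the 38 genes, with 24 windows. The motif CG, which reads the same on both strands, was counted: the 24 windows held 4 to 45 CpGs with a median of 14.5, against a median of 7 over all 32851 windows of 300 bases. Of the 24, 20 held at least 7, as did 52.1% of all windows. Most of the 24 belonged to HoxA and HoxD. HoxB had entries only for Hoxb1 (10 CpGs), Hoxb4 (14) and Hoxb8 (13), and HoxC only for Hoxc4 (9), all below the median of 14.5. The median therefore says little about HoxB and HoxC. The promoter nearest the 13 end with an entry is printed for each cluster, 5′ to 3′ on the strand of the gene, with every CpG in capitals. Only in HoxA and HoxD is this the first gene. In HoxC it is Hoxc4, the gene farthest from the 13 end, so the printed promoters are not matched in position.

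Hoxa13, chr6:52260831-52261130 (GRCm38.p6, minus strand): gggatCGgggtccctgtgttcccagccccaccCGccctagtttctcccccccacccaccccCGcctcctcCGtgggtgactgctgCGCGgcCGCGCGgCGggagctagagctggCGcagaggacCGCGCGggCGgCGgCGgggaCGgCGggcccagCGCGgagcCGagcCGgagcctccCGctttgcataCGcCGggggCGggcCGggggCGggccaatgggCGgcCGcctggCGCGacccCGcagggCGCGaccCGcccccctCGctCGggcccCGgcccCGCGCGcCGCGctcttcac

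Hoxb8, chr11:96281655-96281954 (GRCm38.p6, plus strand): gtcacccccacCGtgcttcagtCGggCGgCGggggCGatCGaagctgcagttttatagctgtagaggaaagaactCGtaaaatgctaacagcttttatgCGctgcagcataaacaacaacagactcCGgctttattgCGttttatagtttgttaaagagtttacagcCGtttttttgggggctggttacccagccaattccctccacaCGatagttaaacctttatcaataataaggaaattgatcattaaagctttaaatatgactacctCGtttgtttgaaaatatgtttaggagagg

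Hoxc4, chr15:103034145-103034444 (GRCm38.p6, plus strand): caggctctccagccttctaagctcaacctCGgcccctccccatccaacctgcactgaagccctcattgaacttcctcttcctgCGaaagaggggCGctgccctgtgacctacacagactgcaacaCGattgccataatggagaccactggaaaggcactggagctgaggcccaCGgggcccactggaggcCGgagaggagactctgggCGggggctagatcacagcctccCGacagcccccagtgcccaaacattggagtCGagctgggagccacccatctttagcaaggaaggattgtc

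Hoxd13, chr2:74667975-74668274 (GRCm38.p6, plus strand): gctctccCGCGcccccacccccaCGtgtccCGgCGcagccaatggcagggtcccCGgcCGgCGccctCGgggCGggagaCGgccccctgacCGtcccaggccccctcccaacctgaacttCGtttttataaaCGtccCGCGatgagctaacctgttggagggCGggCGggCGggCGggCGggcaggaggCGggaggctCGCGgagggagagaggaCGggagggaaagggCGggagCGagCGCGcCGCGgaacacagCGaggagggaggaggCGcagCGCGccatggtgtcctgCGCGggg

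These windows held 45 CpGs (Hoxa13), 13 (Hoxb8), 9 (Hoxc4) and 37 (Hoxd13). At least as many were found in 1.93%, 37.9%, 45.8% and 5.58% of all windows. Hoxa13 and Hoxd13, which pattern the digits and the urogenital tract, thus had among the most CpG-dense promoter windows of the table, and the Hoxb8 and Hoxc4 windows were moderate. These are sequences of GRCm38.p6, and whether a Ring1b region of the mm9 table covers them was not determined.

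Ring1b was lower in K36M cells at all 56 Hox regions. Summed over them, 377 RPM in the WT library stood against 136 RPM in the K36M library, from 11244 and 4282 reads, a 2.77-fold lower level (ratio 0.360, interval 0.348 to 0.373). Of all regions in the table, 85.1% were lower. The median log2 ratio, computed with a pseudocount of 0.1 RPM that understates the change of low regions, was -1.55 over the Hox regions, -0.65 over all 6371 and -0.65 over the 6315 outside the windows. The Hox regions ranged from -2.57 to -0.25. On this scale a reduction of 1.5-fold or more was seen at 55 of 56 (53.4% of all regions), of 2-fold or more at 48 (33.5% of all regions) and of 4-fold or more at 9 (8.26% of all regions). Of these 9, 8 were among the 25 Hox regions of 400 bp or less. No Hox region was at least 1.5-fold higher (1.22% of all regions). The counting interval lay wholly below 1 at 55 of the 56, beside 65.1% of all regions, wholly above 1 at none (3.06% of all regions), and included 1 at a single HoxA region. Of the 56, 41 lay below the lower quartile of the whole table (-1.22) and 1 lay above its median.

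Summed Ring1b was 2.48-fold to 2.92-fold lower in each of the 4 clusters. HoxA held 58.8 RPM in the WT library and 23.7 RPM in the K36M library, 2.48-fold lower (interval 2.27 to 2.70). HoxB held 149 and 54.2 RPM, 2.76-fold lower (2.61 to 2.92). HoxC held 139 and 47.7 RPM, 2.91-fold lower (2.74 to 3.09), and HoxD held 29.5 and 10.1 RPM, 2.92-fold lower (2.56 to 3.32). The intervals of HoxB, HoxC and HoxD overlapped one another. The interval of HoxA overlapped those of HoxB and HoxD and lay below that of HoxC. The clusters differed more in how they were occupied. Regions covered 38.5% of the HoxA window, 31.3% of HoxB, 33.4% of HoxC and 10.7% of HoxD. Density over the covered length was 1.13 RPM per kb in HoxA in WT, and 2.45, 2.68 and 2.50 in HoxB, HoxC and HoxD. In K36M the same lengths held 0.457, 0.888, 0.921 and 0.857 RPM per kb.

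**Figure D1:**
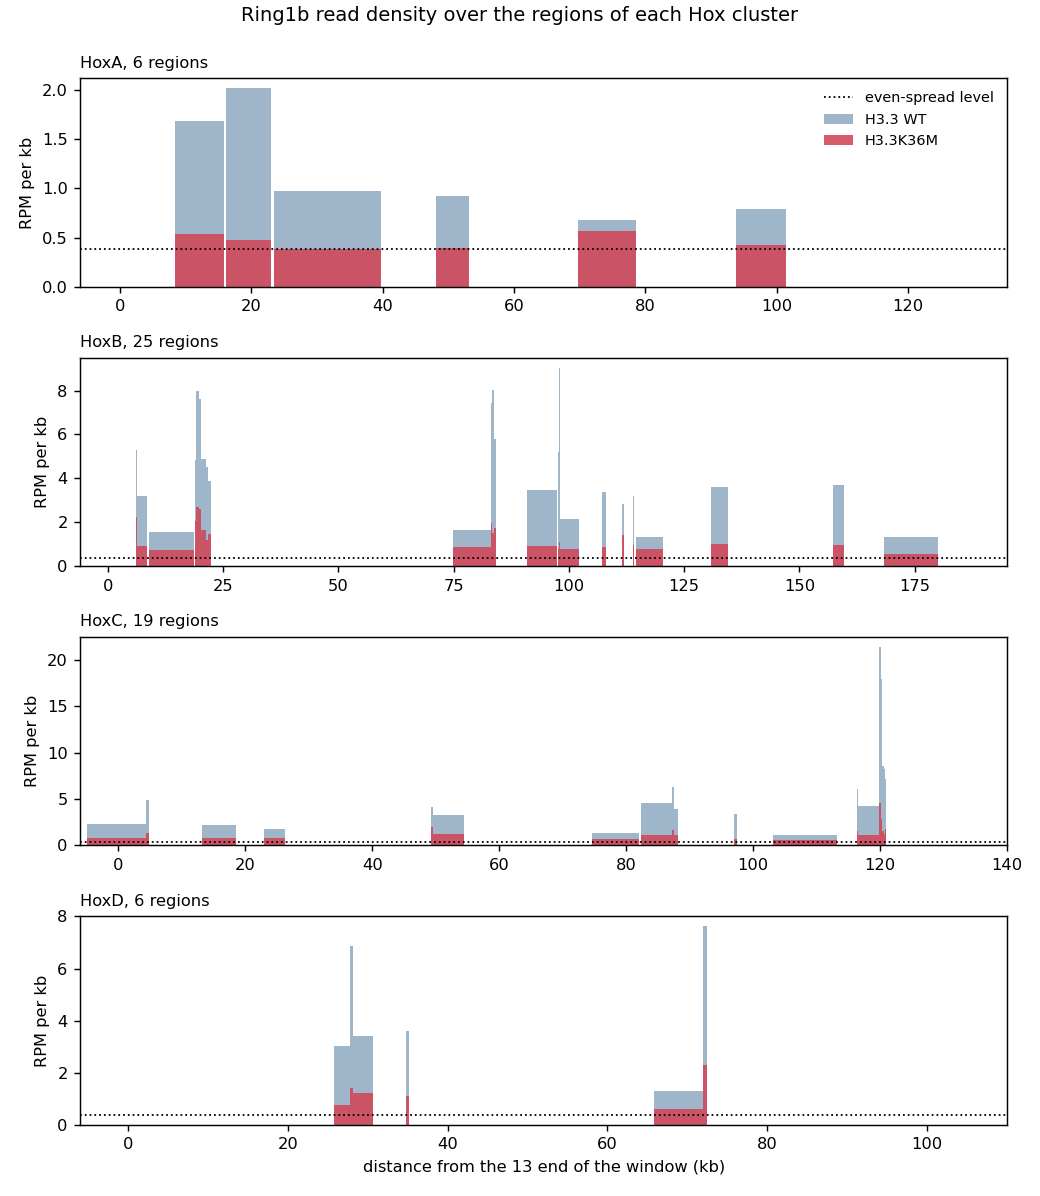
Ring1b read density (RPM per kb) in each region of the 4 Hox windows against distance from the 13 end in kb, with the WT library in blue, the K36M library in red drawn over it from 0, and the dotted line at 0.385 RPM per kb, the level of reads spread evenly over the genome. Bars have the width of the region and gaps have no listed region; the K36M bar is below the WT bar in all 56 regions.

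A reference for background was taken from the table itself. Reads spread evenly over the span of the chromosomes up to their last listed regions, 2595 Mb in all, would give 0.385 RPM per kb if the scale is exactly reads per 1000000. This span is a lower bound of the genome, so the level is an upper bound under even spread; input values were not analysed here, and local background may differ. No Hox region in WT was below 1.5 times this level (3.97% of all regions), and 8 of 56 (14.3%) were in K36M (24.8% of all regions). Of these 8, 6 were the whole of HoxA, and HoxB and HoxC gave 1 each. With this level taken off both libraries, an alternative added after seeing the data, the summed Hox values were 4.56-fold lower in K36M in place of 2.77-fold. The other clusters were then 4.11-fold (HoxB), 4.29-fold (HoxC) and 4.48-fold (HoxD) lower. Taking the same level off both libraries raises every fold above 1, so the rise itself was fixed in advance. In HoxA, whose K36M density of 0.457 RPM per kb was near the level taken off, the remainder was 38.8 RPM for WT against 3.71 RPM for K36M, a 10.5-fold difference that rests on the small K36M value. Over the regions outside the windows, leaving out 1 region wider than 1000 kb, the same step moved the fold from 1.57 to 2.12. Over the 25 regions within 500 kb of the windows it moved the fold from 2.43 to 4.57, so the Hox value of 4.56 was not particular to the clusters. The same step left a K36M sum of -1.19 RPM in the flank of HoxA, so it takes off too much there. How much of the K36M signal was Ring1b was not tested.

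HoxA was made of 6 separate regions, none of which touched another, and its WT profile was uneven while its K36M profile was nearly level. The first region from the 13 end, 52214201 to 52221600, held 12.5 RPM in the WT library and 3.99 RPM in the K36M library, 3.12-fold lower (interval 2.54 to 3.85). The next, 52207001 to 52213800, held 13.7 and 3.20 RPM and had the largest reduction of the cluster, 4.28-fold (3.43 to 5.38). The widest, 52190201 to 52206600, held 16.0 and 6.34 RPM, 2.53-fold lower (2.14 to 2.99). These 3 lay side by side with gaps of 400 bp and held most of the WT reads of the cluster. The region at 52176801 to 52181800 held 4.62 and 1.97 RPM, 2.35-fold lower (1.73 to 3.23). At 52151401 to 52160200 the values were 5.96 and 5.01 RPM, 1.19-fold lower, with an interval of 0.956 to 1.48 that includes 1. This was the smallest change of all 56 regions, at the lowest WT density of all of them (0.678 RPM per kb). The region nearest the 1 end, 52128601 to 52136200, held 6.03 and 3.23 RPM, 1.86-fold lower (1.45 to 2.40). In WT the densities of the 6 spanned 0.678 to 2.01 RPM per kb, a 2.97-fold range, and in K36M 0.387 to 0.569, a 1.47-fold range. The order differed as well: the region with the highest K36M density was the one with the lowest WT density. All 6 K36M densities lay below 1.5 times the even-spread level, so their order rests on small differences near that level. The 33.6 kb nearest the 1 end of the window held no listed region.

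HoxB had the most regions and a long stretch without any. A first group of 10 regions lay at the 13 end, between 96051001 and 96067400, and was followed by 52.4 kb with no listed region before the other 15. Hoxb13 is known to lie apart from the rest of its cluster; the 10 regions cannot be assigned to it here. These 10 summed to 43.7 RPM in the WT library and 17.1 RPM in the K36M library, and each was at least 2.05-fold lower. The first of them, 96051001 to 96051400, held 2.11 and 0.888 RPM, 2.38-fold lower (at most 3.86-fold by its interval). The widest, 96053801 to 96063600, held 15.0 and 7.32 RPM, 2.05-fold lower (1.75 to 2.42). Next to it, 7 touching regions of 200 to 1000 bp, from 96063801 to 96067400, had densities of 3.89 to 7.98 RPM per kb in the WT library and 1.19 to 3.33 in K36M, with the highest in different pieces, and together were 2.86-fold lower.

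In the other 15 HoxB regions the highest level was at 96136001 to 96142400, with 22.3 RPM in the WT library and 5.74 RPM in the K36M library, 3.89-fold lower (interval 3.29 to 4.61). It was the HoxB region with the highest WT level, and in K36M the wide regions at 96053801, 96119801 and 96213401 all stood above it. The region at 96119801 to 96128000 held 13.7 and 7.16 RPM, 1.91-fold lower (1.62 to 2.25). In the same block of touching regions, the 400 bp at 96128401 to 96128800 held 3.22 and 0.602 RPM, 5.34-fold lower (3.24 to 9.25). The lowest ratio of all 56 regions was at 96142801 to 96143000, 200 bp with 1.81 RPM in the WT library and 0.222 RPM in the K36M library, from 54 and 7 reads, 8.15-fold lower (3.70 to 21.2). It also had the highest WT density in HoxB, 9.05 RPM per kb. The smallest HoxB reductions were at 96159601 to 96165400, with 7.74 and 4.63 RPM (1.67-fold, 1.35 to 2.07), at 96156601 to 96157000, with 1.14 and 0.571 RPM (2.00-fold, 1.10 to 3.75), and at the region of 96119801. The last region towards the 1 end, 96213401 to 96225000, held 15.3 and 6.34 RPM, 2.42-fold lower (2.05 to 2.87). All 25 HoxB intervals lay below 1.

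HoxC held the densest Ring1b site of the 4 clusters. At 102859801 to 102860200, 400 bp held 8.54 RPM in the WT library and 1.81 RPM in the K36M library, 4.73-fold lower (interval 3.54 to 6.42). Its WT density of 21.4 RPM per kb was above that of 99.5% of all regions in the table, and its K36M density of 4.52 RPM per kb above that of 85.1%. The adjoining 200 bp, 102860201 to 102860400, held 3.58 and 0.571 RPM, 6.28-fold lower (at least 3.79-fold by its interval). Another piece of the same block, 102860601 to 102860800, held 1.64 and 0.254 RPM, 6.47-fold lower (3.04 to 15.8), and the last, 102860801 to 102861000, held 1.44 and 0.349 RPM, 4.13-fold lower (2.09 to 8.88). The wide piece of the block, 102856601 to 102859800, held 13.6 and 3.77 RPM, 3.61-fold lower (2.94 to 4.47). All 7 touching pieces, from 102856401 to 102861000, summed to 31.8 RPM in the WT library and 7.39 RPM in the K36M library, 4.30-fold lower, the largest reduction of the 10 blocks of touching regions in the clusters.

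Elsewhere in HoxC the highest WT level was at 102822401 to 102827200, with 21.8 RPM in the WT library and 5.45 RPM in the K36M library, 4.01-fold lower (interval 3.38 to 4.77). The region at the 13 end, 102735001 to 102744400, which begins 5 kb outside the window, held 21.3 and 8.02 RPM, 2.66-fold lower (2.29 to 3.09). At 102789601 to 102794400 the values were 15.6 and 5.99 RPM, 2.61-fold lower (2.20 to 3.11). The highest HoxC log2 ratios among regions with at least 50 reads were at 102814601 to 102822000, with 9.65 and 4.88 RPM (1.98-fold, 1.62 to 2.42), at 102843201 to 102853200, with 11.4 and 5.67 RPM (2.00-fold, 1.67 to 2.41), and at 102789201 to 102789600, with 1.68 and 0.792 RPM (2.11-fold, 1.28 to 3.57). The first 2 of these were the HoxC regions of lowest WT density, at 1.30 and 1.14 RPM per kb. All 19 intervals lay below 1.

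HoxD had 6 regions in 3 places and none in the 37.6 kb nearest the 1 end. At 74525801 to 74527800 Ring1b stood at 6.03 RPM in the WT library and 1.55 RPM in the K36M library, 3.88-fold lower (interval 2.82 to 5.44). The touching 400 bp at 74527801 to 74528200 held 2.75 and 0.571 RPM and had the largest HoxD reduction, 4.81-fold (2.86 to 8.52). The piece at 74528201 to 74530600 held 8.21 and 2.88 RPM, 2.85-fold lower (2.23 to 3.66). A separate 400-bp region at 74534801 to 74535200 held 1.44 and 0.444 RPM, 3.25-fold lower (1.74 to 6.42). After 30.6 kb with no listed region, 74565801 to 74572000 held 8.01 and 3.74 RPM, 2.14-fold lower (1.71 to 2.69). The 400 bp touching it, 74572001 to 74572400, held 3.05 and 0.919 RPM, 3.32-fold lower (2.16 to 5.23). Of the 6, this last region had the highest density in both libraries, 7.62 RPM per kb against 2.30 in K36M, and the wide region beside it had the lowest in both.

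**Figure D2:**
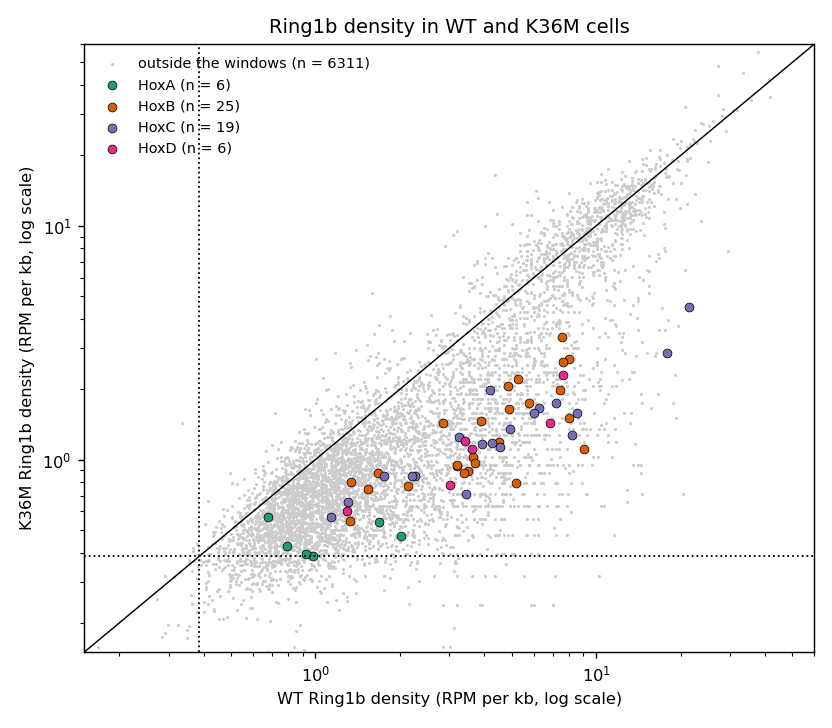
Ring1b density in WT (x axis) and K36M (y axis), both in RPM per kb on log scales, for the Hox regions by cluster and for the other regions above 0 in both libraries in grey; the diagonal marks equal density and the dotted lines 0.385 RPM per kb, the even-spread level. All 56 Hox regions lie below the diagonal, and the 6 HoxA regions lie along the dotted line of the K36M axis.

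No gradient common to the 4 clusters was seen from the 13 to the 1 end. Each window was cut into 3 equal parts. In HoxA the ratio of K36M to WT was 0.321 in the part nearest the 13 end (interval 0.287 to 0.358, 3 regions), 0.659 in the middle part (0.552 to 0.785, 2 regions) and 0.536 in the part nearest the 1 end (0.416 to 0.687, 1 region). In HoxD it was 0.296 nearest the 13 end (0.248 to 0.352, 4 regions) and 0.422 in the middle (0.345 to 0.513, 2 regions), with no region in the last part. HoxB and HoxC ran the other way, with ratios of 0.392, 0.360 and 0.332 in HoxB (10, 12 and 3 regions) and 0.390, 0.344 and 0.300 in HoxC (4, 6 and 9 regions). In HoxB the intervals of the outer parts overlapped (0.354 to 0.434 and 0.295 to 0.372). In HoxC they did not (0.350 to 0.433 and 0.268 to 0.335). Without regions of 400 bp or less, the log2 difference between the outer parts of HoxC went from -0.38 to -0.07, so that it rested on the narrow pieces near the 1 end. In HoxB it went from -0.24 to -0.02 when the window was cut in 2 at its middle. The HoxA difference, 0.74, was between 0.74 and 1.10 under the alternatives tried. The HoxD difference, 0.51, is between the middle part and the part nearest the 13 end, and was between 0.51 and 0.75. In both clusters several alternatives compared the same reads again, so they could not move the value. Across regions, Spearman's rho of the log2 ratio with distance from the 13 end was 0.89 in HoxA (n = 6), -0.21 in HoxB (n = 25), -0.66 in HoxC (n = 19) and 0.54 in HoxD (n = 6). These regions share the same pair of libraries, and neighbours often touch, so no p is given.

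**Figure D3:**
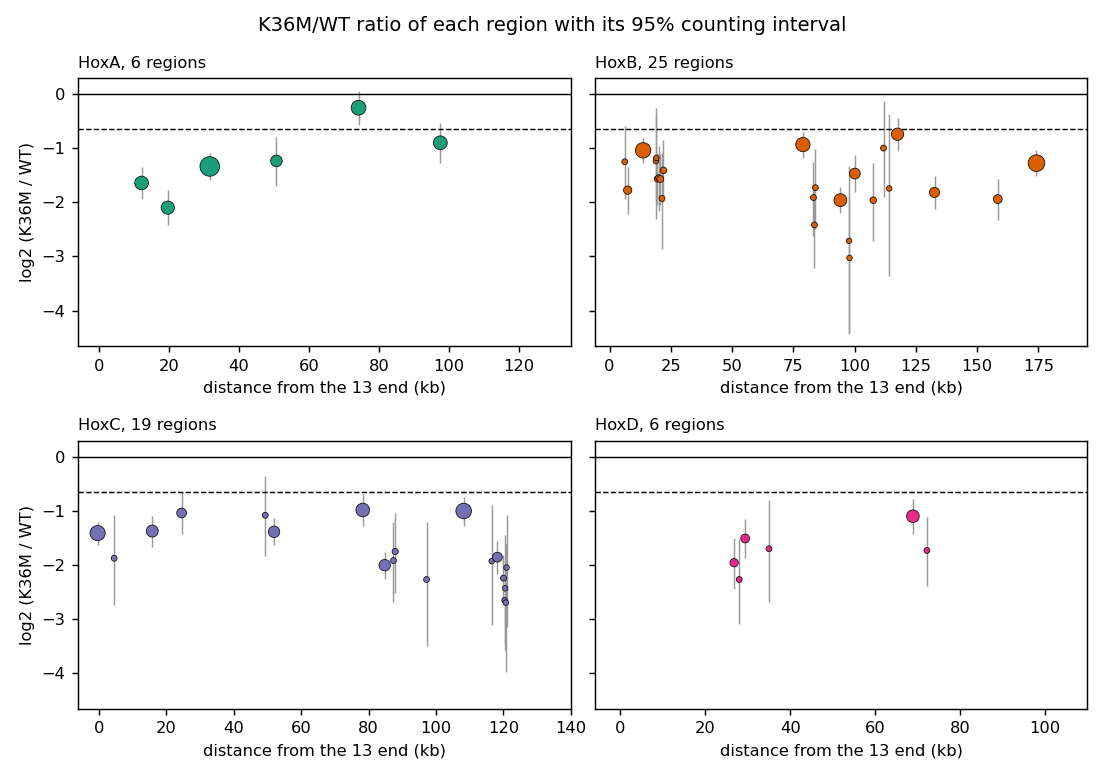
log2 of the K36M/WT ratio of each Hox region against distance from the 13 end in kb, with bars for the 95% counting interval, larger points for wider regions, a solid line at 0 and a dashed line at the median of all 6371 regions (-0.65). HoxA rises away from the 13 end and HoxC falls, and 1 HoxA region lies above the dashed line.

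Density also differed between the parts, but not in the same way in each cluster. In the HoxA part nearest the 13 end, WT density was 1.38 RPM per kb, against 0.767 and 0.793 in the other parts, while K36M density was 0.442, 0.505 and 0.425. In HoxC the WT densities of the 3 parts were 2.22, 2.92 and 2.97, and those in K36M 0.863, 1.00 and 0.890. HoxB went the other way: its WT densities fell, 2.76, 2.48 and 2.12, while its ratio fell too, with 1.08, 0.895 and 0.702 in K36M. In HoxD the WT density was 3.54 nearest the 13 end and 1.675 in the middle, with 1.05 and 0.706 in K36M. Over all 56 regions the log2 ratio fell with WT density (Spearman's rho -0.65, n = 56), and less so with the geometric mean of both densities (rho -0.49) or with K36M density (rho -0.27). WT density is also the denominator of the ratio, so that the first of these is partly built in. Outside the windows and dense runs, rho of the log2 ratio was -0.36 with WT density and 0.30 with K36M density (n = 5767). A fall with WT density was thus not particular to Hox. Within HoxA the order by ratio was the exact reverse of the order by WT density (rho -1, n = 6), and rho was -0.85 in HoxC, -0.54 in HoxD and -0.49 in HoxB. These values are partly built in as well, most of all in HoxA, where K36M density spanned only a 1.47-fold range. Whether position or density goes with the change was not tested.

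In blocks of touching regions, most pieces were denser than the widest piece. The 56 regions formed 31 blocks, of which 21 were single regions and 10 were made of 2 to 7 touching regions, 35 regions in all. In these 10 blocks, 25 pieces were not the widest of their block, some of them several pieces away from it, and 20 of the 25 were denser than the widest in WT and 22 in K36M. The log2 ratio was lower than in the widest piece in 14 of the 25, and the medians were -1.73 for the 25 pieces and -1.46 for the 10 widest. Narrow regions were denser outside the windows too. The median WT density there was 6.62 RPM per kb up to 400 bp and 1.23 at over 2000 to 8000 bp. These counts were not made for touching regions elsewhere, so they are not shown to be particular to Hox. Whether a read at the border of touching regions was counted in both is not stated in these sources.

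Hox regions had lower ratios than regions of the same width elsewhere. Dense runs, in which 10 or more regions follow each other no more than 2000 bp apart, were left out of the other regions in this comparison because most of their regions are narrow and had nearly equal levels in both libraries. For widths up to 400 bp the median log2 ratio was -1.73 over 25 Hox regions and -1.05 over 1387 others. For over 400 to 2000 bp it was -1.62 over 7 and -0.98 over 830. For over 2000 to 8000 bp it was -1.44 over 17 and -0.68 over 2342, and for over 8000 bp it was -1.03 over 7 and -0.53 over 1208. Of the 56 Hox regions, 53 lay below the median of the other regions of their width. The densities compared differently by width. At over 2000 to 8000 bp the median WT density was 2.13 RPM per kb for Hox regions and 1.23 for the others, and the K36M medians were 0.851 and 0.750. At over 8000 bp they were 1.32 and 0.773 in WT and 0.569 and 0.519 in K36M. At up to 400 bp the WT medians were 6.28 and 5.61, and the K36M median was lower for Hox regions, 1.59 against 2.30. The regions were matched by width and not by density. No test stands behind these differences, since regions are not replicates.

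**Figure D4:**
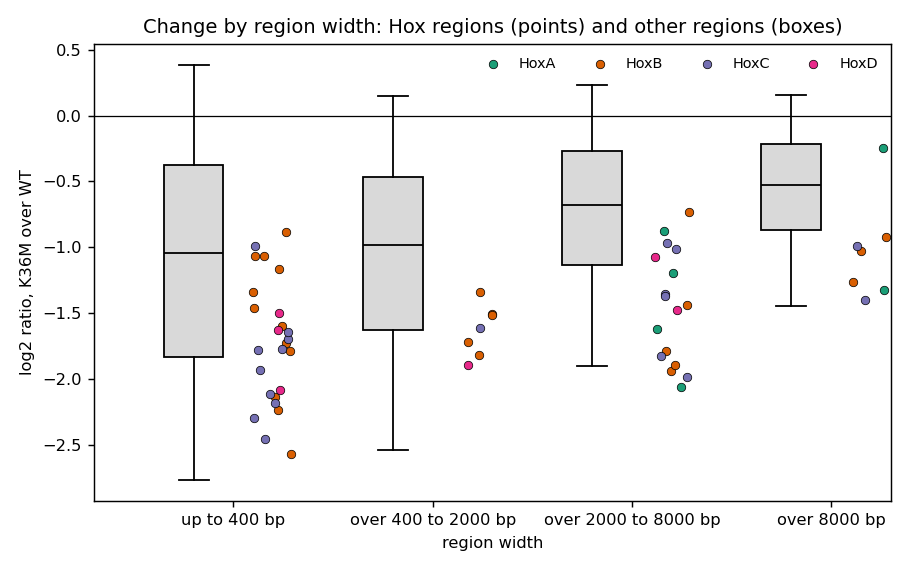
log2 ratio of K36M over WT (pseudocount 0.1 RPM) by region width, with Hox regions as points coloured by cluster and the other regions outside dense runs as boxes (median, quartiles, whiskers from the 5th to the 95th percentile). Of the 56 Hox points, 53 lie below the median of the box of their width, and the medians of the Hox points run from -1.73 for the narrowest to -1.03 for the widest class.

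The first 10 HoxB regions were the only dense run in the windows. Over them the summed ratio was 0.392 (interval 0.354 to 0.434) and the median log2 ratio -1.40. The 548 regions of the other runs had a summed ratio of 1.00 and a median of 0.00. Their WT density was also higher, with a median of 10.0 RPM per kb against 4.87 for the HoxB run.

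The change did not stop at the borders of the windows. Within 500 kb on either side lay 25 further regions, with 220 RPM in the WT library and 90.4 RPM in the K36M library, 2.43-fold lower (ratio 0.411, interval 0.393 to 0.430) and a median log2 ratio of -1.31. Of them, 17 were at least 2-fold lower (33.5% of all regions). The nearest region beyond the 13 end of HoxA, 52257201 to 52262800, held 15.2 RPM in the WT library and 2.31 RPM in the K36M library, 6.56-fold lower, a larger fold than at any of the 6 HoxA regions. Beyond the 13 end of HoxB, 96037801 to 96045000 ended at the window border with 23.4 and 7.64 RPM, 3.07-fold lower. The nearest regions outside HoxC, at 102731801 and 102887801, were 3.88-fold and 3.93-fold lower, and the nearest one beyond the 13 end of HoxD, 74491201 to 74494800, was 2.44-fold lower. Towards the 1 end, the next region after HoxB, 96361401 to 96387200, was 1.39-fold lower (16.4 against 11.8 RPM). The next regions in that direction were 946 kb from HoxA, where 51131601 to 51149400 was 6.01-fold lower (48.4 against 8.05 RPM), and 871 kb from HoxD, where the level was higher in K36M (2.61 against 3.65 RPM). The flanks differed among clusters: the 3 regions beside HoxA were 4.35-fold lower in sum, the 9 beside HoxB 2.56-fold, the 12 beside HoxC 1.78-fold and the 1 beside HoxD 2.44-fold.

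**Figure D5:**
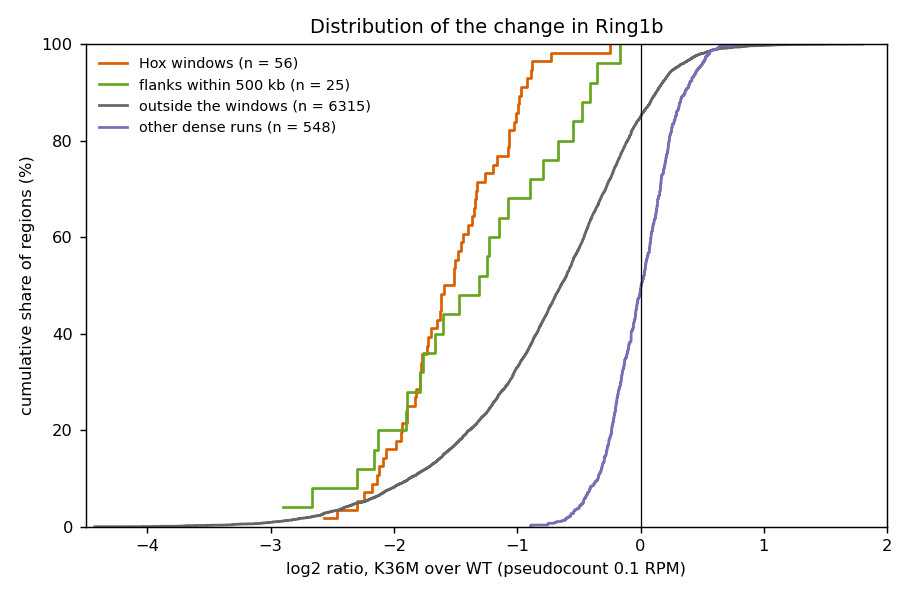
Cumulative share of regions (%) against the log2 ratio of K36M over WT for the 56 Hox regions, the 25 regions within 500 kb, the 6315 regions outside the windows (which include the flanks) and the 548 regions of the other dense runs. The Hox and flank curves lie to the left of the curve of all other regions over most of its range, with medians of -1.55, -1.31 and -0.65, and the dense runs centre on 0.00.

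As a share of the table, the Hox regions were 0.879% of the regions, 1.05% of the WT reads and 0.594% of the K36M reads. In WT, 43 of the 56 had a density above the table median of 1.75 RPM per kb, and in K36M 34 of the 56 were above the table median of 0.921. Their share of reads was thus lower in K36M than in WT, and 34 of the 56 still stood above the median density of that library. Width differs between the Hox regions and the table, and density falls with width, so that these counts mix both.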

How the data were processed

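Ring1b ChIP-seq values of 2 libraries were used, 1 per form of H3.3, and the input libraries were left out. The authors used Bowtie 1.0.0 and the build mm9, per the submitters' processing notes. The sources do not state how peaks were called, reads counted or duplicates treated. The deposited columns are headed RPKM, but behave as RPM, since every value is a whole multiple of 1 step per library whatever the width. Dividing by the step gave whole reads (tolerance 0.01), and the steps imply about 29.9 (WT) and 31.5 (K36M) times 1000000 reads if the scale is exactly RPM. Starts are printed counted from 1.

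Computed here with Python 3.11.15, pandas 2.3.3, numpy 2.4.6 and scipy 1.17.1 were sums, densities, log2((K36M + 0.1)/(WT + 0.1)) and Clopper-Pearson intervals. The intervals were checked on simulated independent Poisson counts, which is the model behind them. That check cannot show how they behave on real reads that depart from it. The reads carry no molecular identifiers and need not be independent molecules. In HoxA and HoxD every region is named. In HoxB and HoxC those named are the 4 with the highest WT level, the 3 lowest and 3 highest log2 ratios with at least 50 reads, and the region at each end; other regions are mentioned in groups or were chosen after their values were seen. The windows, members and comparisons were chosen with earlier results of these data known. The even-spread level, the dense-run comparison and leaving out single clusters were added after seeing the data. Alternatives are given in the closing section.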

Additional observations from a re-analysis of the deposited data

How the results depend on the processing

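Of the 12 results run under alternatives, the summed ratios all stayed below 1, and the medians and log2 differences kept their sign. The count of regions has no sign to keep. Results for flanks, width classes, correlations and blocks were not rerun. The approximate counting interval of the log2 difference between outer parts then included 0 in HoxB with the window cut in 2 (-0.18 to 0.15) and in HoxC without regions of 400 bp or less (-0.31 to 0.18). The median log2 ratio of the Hox regions, -1.55, was -1.06 with a pseudocount of 1, -0.90 centred on the median of all regions (a shift of 0.65) and -1.35 with touching regions merged. Its difference from the other regions, -0.91, was -0.56 with a pseudocount of 1 and -0.67 with touching regions merged. The count of regions at least 2-fold lower, 48 of 56 (85.7%), was 25 of 31 blocks with touching regions merged. It was 26 of 31 regions (83.9%) without HoxB and 24 with a filter on low mean levels. Without regions of 400 bp or less it was 25, made of 7 of 7, 14 of 17 and 4 of 7 in the wider classes. Of other regions outside dense runs, 49.5%, 31.1% and 18.5% of these classes passed. These alternatives have fewer regions, so their counts are not to be set against 48 without the share. The summed ratio, 0.360, was 0.377 without regions of 400 bp or less, 0.374 without the region of highest WT value in each cluster and 0.375 with the filter on low levels; in HoxC, 0.343 became 0.369 without regions of 400 bp or less. With the even-spread level taken off, the summed ratios were 0.219 (all clusters), 0.0956 (HoxA), 0.243 (HoxB), 0.233 (HoxC) and 0.223 (HoxD). That step could only lower ratios that were already below 1, so it is no check on their direction. The log2 difference between the outer parts was -0.0172 in HoxB with the window cut in 2 and -0.0653 in HoxC without regions of 400 bp or less. No paired analysis was possible because each group had 1 library. Narrow regions with few K36M reads, down to 5, have wide counting intervals.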
